A study of Mus musculus with 24 samples.

Results

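The prolactin family of the mouse holds hormones and cytokines of the uterus and placenta, and 9 genes of the family and the receptor gene were followed here across 24 expression arrays. They were taken as the probe sets that name exactly 1 of these 10 genes. Of the 10, 9 had such a probe set. These were 3 genes made mainly by decidual cells (Prl8a2, Prl3c1 and Prl6a1) and 6 made mainly by trophoblast cells (Prl2c2, Prl2c3, Prl4a1, Prl7a1, Prl7a2 and Prl7d1). They form 9 of the 19505 named genes and 10 of the 22206 probe sets measured, since Prl8a2 had 2. The prolactin receptor gene Prlr had no probe set naming it and was not analysed here.

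All animals were ICR-CD1 mice, an outbred strain, and each of the 6 groups held 4 arrays. The groups were material labelled whole embryo at embryonic day 7.5 (ED7.5), material with the same label at embryonic day 14.5 (ED14.5), and PD7.5 liver, taken from neonates at postnatal day 7.5, each descending from a control or from an obese (SL) grandfather. No group carried an added allele or agent in the labels, and the labels do not spell out SL. The labels name neither litters nor grandfathers nor sex, so the p-values below measure only the spread between these samples, which may in part be technical.

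As background, the mouse family arose by repeated duplication of genes. A few of its hormones act like pituitary prolactin through the prolactin receptor, the kinase JAK2 and the STAT5 factors, while many others have other or unknown receptors. In the pregnant uterus, stromal cells around the implanting embryo turn into decidual cells, which secrete their own family members. The trophoblast giant cells at the border of embryo and decidua secrete proliferins, placental lactogens and prolactin-like proteins that act on vessels, blood cells and uterine natural killer cells of the mother.

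The 250 bases before the annotated start of 4 members are shown, since the sequence shows which members are close copies and which letters their starts share. They are from RefSeq on GRCm38.p6, and the arrays' files name no build of their own. Prl3c1 lies at chr13:27196410-27196659 on the plus strand. Prl2c3 lies at chr13:12800080-12800329, Prl7d1 at chr13:27716738-27716987 and Prl7a1 at chr13:27642494-27642743, all on the minus strand. Capitals mark matches on either strand to 5 motifs. One motif was TATATA and a further one TATAAA, and these can overlap. The motif of GATA factors was searched as AGATAA. That of AP-1 was searched as TGANTCA, and the STAT motif was searched as TTCNNNGAA.
Prl3c1: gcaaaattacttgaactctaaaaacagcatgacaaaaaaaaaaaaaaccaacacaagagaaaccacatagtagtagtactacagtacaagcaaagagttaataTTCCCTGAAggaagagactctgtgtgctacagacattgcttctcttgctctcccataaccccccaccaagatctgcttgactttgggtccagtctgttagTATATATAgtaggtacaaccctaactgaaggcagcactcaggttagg
Prl2c3: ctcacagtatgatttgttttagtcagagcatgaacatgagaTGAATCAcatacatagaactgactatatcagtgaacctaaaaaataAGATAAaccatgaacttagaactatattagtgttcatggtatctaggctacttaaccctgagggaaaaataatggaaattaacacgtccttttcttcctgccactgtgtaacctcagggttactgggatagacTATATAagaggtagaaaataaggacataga
Prl7d1: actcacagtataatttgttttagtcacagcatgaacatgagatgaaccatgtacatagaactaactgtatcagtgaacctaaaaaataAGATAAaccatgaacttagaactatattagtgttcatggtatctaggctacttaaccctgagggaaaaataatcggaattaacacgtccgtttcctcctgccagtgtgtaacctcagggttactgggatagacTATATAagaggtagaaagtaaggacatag
Prl7a1: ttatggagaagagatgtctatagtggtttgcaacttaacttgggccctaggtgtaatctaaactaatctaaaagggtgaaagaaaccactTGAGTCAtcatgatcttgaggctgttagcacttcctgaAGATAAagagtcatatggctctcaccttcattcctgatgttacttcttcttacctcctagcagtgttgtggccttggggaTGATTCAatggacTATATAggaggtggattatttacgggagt

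Of the 9 measured members, 7 had such a window. No window was listed for Prl8a2 and Prl2c2. The windows of Prl2c3 and Prl7d1 were 94.0% identical, and that of Prl2c3 was 96.0% identical to the window of Prl2c5, a further proliferin gene, which was in turn 93.7% identical to that of Prl7d1. The windows of Prl7a1 and Prl7a2 were 76.8% identical, and the other 24 pairs among these 8 genes were 46.0% to 59.2% identical. TATATA was present in 7 of 7 members' windows, against 5.25% of 32851 windows of all genes, and this motif was added after the windows had been seen. The GATA motif was in 5 of 7 (9.99% of all windows), the AP-1 motif in 3 of 7 (6.75%), TATAAA in 1 of 7 (12.4%) and the STAT motif in 2 of 7 (7.02%). The STAT matches were those of Prl3c1, which begins at -147 from the start, and of Prl6a1, which begins at -139, and these are both decidual members that had a window. A match describes letters in the window and not a site of binding.

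The arrays were deposited as log2 values, and a gene was called above background on an array where its value passed the level below which 75% of that array's 5222 negative control features lay. This background ran from 5.05 to 6.53 over the 24 arrays, and 48.3% to 64.1% of named genes passed it. It was highest on ED7.5 control replicate 2 and lowest on ED7.5 control replicate 4. Control replicate 4 also had the highest share of genes above background (64.1%) and the highest median of named genes (6.61). Arrays of 1 group correlated across genes with r between 0.981 and 0.993 (36 pairs, across genes, which are not independent replicates), and no pair was identical. The number of arrays limits the precision.

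The labelled tissue and the marker genes matched only in part at ED7.5. All 13 genes of a decidual stroma list (among them Bmp2, Hand2, Hoxa10 and Pgr, regulators of decidual cells) passed the background on every ED7.5 array, with array means from 11.18 to 11.34. All 7 measured uterine natural killer cell genes, such as Prf1 and the granzyme Gzmg, were also above background on all 8 arrays, with array means from 9.34 to 10.18. Of 7 epiblast genes, 0 to 3 were above background on an array, and 4 of 7, among them Nanog and Sox2, were at or below it on every control array and 6 of 7 on every SL array. Of 6 visceral endoderm genes, 2 were above background on every control array and 4 on every SL array. Control replicate 2, with the highest background (6.53), had 2 of them above it. The other control arrays had 3 to 5 and the SL arrays 4 to 5, so the count over all control arrays depends on that array. Of 10 genes of trophoblast giant cells and placental cathepsins, 3 were above it on every control array and 3 on every SL array. On the ED14.5 arrays, also labelled whole embryo, the 7 hepatocyte genes had array means from 12.82 to 12.94, and the same genes had means from 13.49 to 13.57 on the liver arrays. The maternal and embryonic share of each sample was not measured.

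Prl8a2, the decidual prolactin-related protein, was far above background on every ED7.5 array. Its log2 values were 13.33, 13.30, 13.23 and 13.41 on the control arrays and 13.31, 13.04, 13.38 and 13.22 on the SL arrays. The means were 13.32 ± 0.0773 (SD, n = 4) and 13.24 ± 0.147 (SD, n = 4), and the groups overlapped, with SL replicate 2 the lowest of the 8. The 2 probe sets of the gene differed by at most 0.126 on these arrays. At ED14.5 and in liver Prl8a2 was under the background on each of 16 arrays, with values from 2.09 to 3.98.

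Prl3c1, prolactin-like protein J of the decidua, had the same pattern over the ages. Its values at ED7.5 were 12.68, 12.68, 12.30 and 12.50 on the control arrays and 12.58, 11.53, 12.50 and 12.32 on the SL arrays. The means were 12.54 ± 0.180 (SD, n = 4) and 12.23 ± 0.480 (SD, n = 4). The low value was again that of SL replicate 2, which set most of the spread of its group. On the other 16 arrays Prl3c1 lay between 1.92 and 3.32, under the background of each.

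Prl6a1, prolactin-like protein B, was only a little above background at ED7.5. It measured 6.65, 6.97, 6.70 and 6.96 on the control arrays and 6.59, 7.44, 7.09 and 6.48 on the SL arrays. It passed the background on all 8 arrays, with 6.82 ± 0.171 (SD, n = 4) and 6.90 ± 0.446 (SD, n = 4). Here SL replicate 2 was the highest array, the reverse of Prl8a2 and Prl3c1. At ED14.5 and in liver its values, 1.51 to 2.50, were under the background of each array.

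The trophoblast members lay near the background at ED7.5 and spread widely between arrays. Prl2c3, a proliferin, was above background on 7 of 8 arrays, Prl4a1 and Prl7a1 (prolactin-like proteins A and E) on 6, Prl2c2 (proliferin, which promotes vessel growth) and Prl7a2 (prolactin-like protein F) on 4, and Prl7d1 (proliferin-related protein, which restrains vessel growth) on 2. At ED14.5 and in liver 0 of the 6 was above background on any of the 16 arrays.

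Prl2c3 measured 5.95, 6.59, 7.04 and 8.64 on the ED7.5 control arrays and 5.87, 5.15, 8.46 and 5.88 on the SL arrays. Prl2c2 measured 5.69, 5.47, 6.20 and 8.0 on the control arrays and 4.86, 4.06, 7.61 and 5.23 on the SL arrays. For both proliferins control replicate 4 and SL replicate 3 were the highest and SL replicate 2 the lowest. The proliferin genes are close copies, and how far their probe sets measure the same transcripts was not tested.

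Prl4a1, a protein known to bind uterine natural killer cells, measured 5.69, 5.78, 6.69 and 8.03 on the control arrays and 6.34, 5.47, 7.35 and 6.14 on the SL arrays. Prl7a1, which is known to act on precursors of platelets, measured 6.38, 6.00, 6.73 and 7.99 on the control arrays and 5.94, 5.71, 7.61 and 5.61 on the SL arrays. Control replicate 4 and SL replicate 3 were again the highest, and for both genes the groups overlapped.

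Prl7a2 and Prl7d1 ordered the arrays differently. Prl7a2 measured 6.32, 4.94, 4.06 and 6.18 on the control arrays and 7.25, 5.35, 7.06 and 5.54 on the SL arrays, and was highest on SL replicate 1. Prl7d1 measured 5.70, 5.11, 4.93 and 5.02 on the control arrays and 4.21, 3.71, 6.23 and 4.14 on the SL arrays, and passed the background only on control replicate 1 and SL replicate 3.

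**Figure D1:**
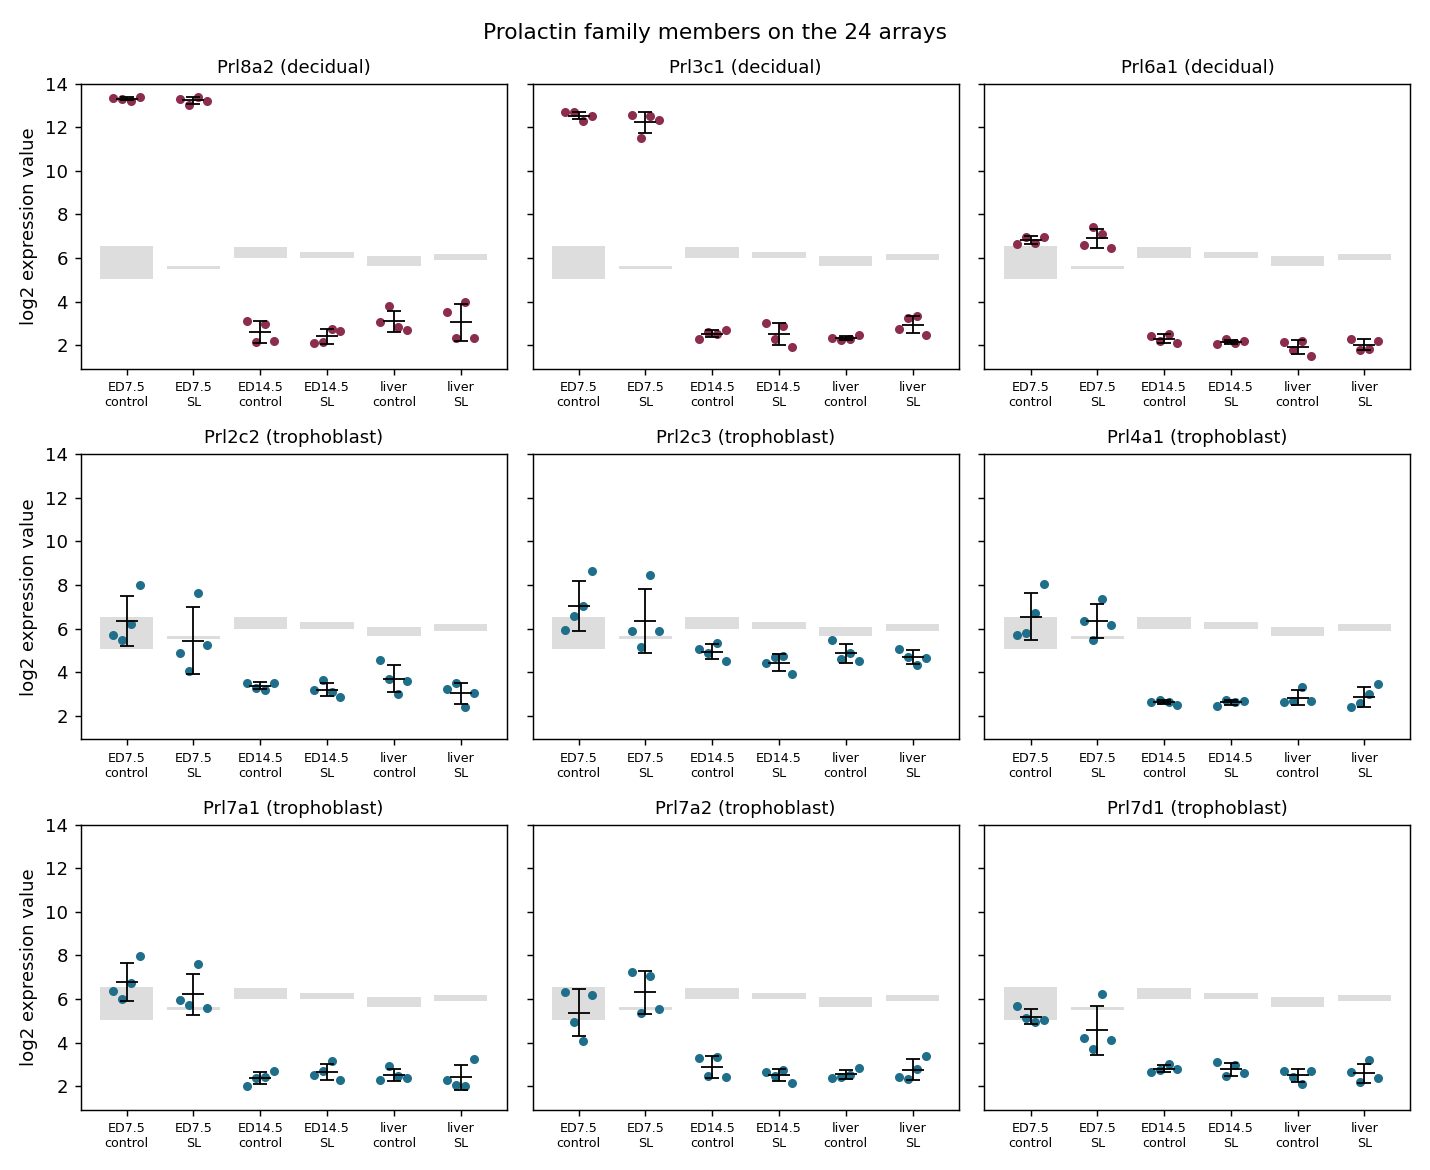
Deposited log2 expression values of the 9 measured members on the 24 arrays, 1 panel per gene, with 4 arrays in each of 6 groups. Points are arrays, the horizontal mark and bars are the mean and SD, and grey bands are the range of the arrays' backgrounds in a group. Prl8a2 and Prl3c1 lie between 11.53 and 13.41 at ED7.5, and every member lies under the grey band at ED14.5 and in liver.

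The ED14.5 arrays were compared with the ED7.5 arrays in each line to describe how far the members depend on age and material. All 9 members were lower at ED14.5 in the control line, with groups that did not overlap. Of all named genes 26.3% were called lower (limma, adjusted p below 0.05), and 24.9% were lower without overlap. The members were listed with their ED7.5 levels known, so the count is not independent evidence of a direction. The median of the 9 differences was -3.93 in log2, against 0.03 over all genes. In bulk samples fewer cells of a type and less RNA per cell cannot be told apart, and here age also goes with a change of the material.

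Prl8a2 changed by -10.72 (SE 0.216, limma adjusted p = 2.89e-10), from 13.32 to 2.60. As the ED14.5 values were under the background, its level was at least 146-fold lower against that background. Prl3c1 changed by -10.01 (SE 0.132, adjusted p = 4.65e-11 by limma), which is at least 85.0-fold lower. Prl6a1 changed by -4.52 (SE 0.133), but its low level at ED7.5 allows only a bound of at least 1.61-fold. The fitted difference of Prl6a1 therefore includes a drop within background values.

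Among the trophoblast members the bounds were small. Taken between group means, they were 1.90-fold for Prl2c3, 1.56-fold for Prl7a1, 1.34-fold for Prl4a1 and 1.16-fold for Prl2c2. They carry no interval, and each rests in part on ED7.5 control replicate 4, the highest control array of that age for all these genes. The median of Prl2c2 on the ED7.5 control arrays was 5.94, under the background of every ED14.5 control array (5.98 to 6.51). The fitted differences of the same genes were -2.11 (Prl2c3), -4.40 (Prl7a1), -3.93 (Prl4a1) and -2.97 (Prl2c2). Prl7a2 (-2.49) and Prl7d1 (-2.39) allowed no fold, since their ED7.5 means did not pass the background level they would be set against.

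In the SL line, which shares no array with the control line, all 9 members were also lower at ED14.5, where 27.1% of named genes were called lower and 25.9% were lower without overlap. Prl8a2 changed by -10.84 (SE 0.166), at least 141-fold lower, and Prl3c1 by -9.71 (SE 0.293), at least 70.5-fold. The trophoblast differences ran from -1.80 (Prl7d1) to -3.79 (Prl7a2), and no bound exceeded 1.19-fold. Prl2c3 was the member nearest the threshold, at -1.91 (SE 0.608, limma adjusted p = 0.0232). Its call was lost without ED14.5 SL replicate 1 (-1.91, limma adjusted p = 0.0521) and without ED14.5 SL replicate 4 (-1.74, limma adjusted p = 0.0592).

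From ED14.5 to liver, 0 of 9 members were called in the control line, where 45.2% of genes were, and 0 of 9 in the SL line, where 45.8% were (limma, adjusted p below 0.05). At an unadjusted p below 0.05 the counts were 1 and 0 of 9, against 50.8% and 51.4% of all genes. Since every member was under the background on all 16 arrays, these differences describe background values. Prl8a2, Prl3c1 and Prl6a1 were thus above background on every ED7.5 array and on none of the others. The trophoblast members were above it on some ED7.5 arrays only, and ED14.5 and liver were not distinguished.

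The SL line was compared with the control line at each age to ask whether descent from an obese grandfather went with the level of these genes. At ED7.5 none of the 9 members was called (limma, 0 of 9; adjusted p from 0.956 to 0.998), 0 of 9 had an unadjusted p below 0.05, and in 0 of 9 the groups were without overlap. Over all genes 0.00513% were called, which is 1 gene, 5.49% had an unadjusted p below 0.05 and 3.05% had groups without overlap.

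Among the decidual members Prl8a2 had the narrowest interval. The difference of SL from control was -0.08 for Prl8a2 (95% confidence interval -0.32 to 0.16), -0.31 for Prl3c1 (-0.80 to 0.18) and 0.08 for Prl6a1 (-0.38 to 0.54). Prl3c1 stood at -0.08 without SL replicate 2, so 1 array carried most of its difference. The sign for Prl6a1 turned without that same array, to -0.10.

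The intervals of the trophoblast members were all wider than those of the decidual members. Prl2c2 stood at -0.90 (-2.60 to 0.79), Prl2c3 at -0.71 (-2.36 to 0.94), Prl7d1 at -0.62 (-1.68 to 0.44), Prl7a1 at -0.55 (-1.70 to 0.59) and Prl4a1 at -0.22 (-1.42 to 0.97). Prl7a2 stood at 0.92 (-0.38 to 2.23). The median of the 6 was -0.59, against 0.002 over all genes, with 1 of 6 above 0, and the 6 are not independent, as described below. Leaving out 1 array moved the difference between -1.62 and -0.35 for Prl2c2, between -1.42 and -0.18 for Prl2c3, between -1.17 and -0.33 for Prl7d1, between -1.02 and -0.15 for Prl7a1 and between 0.49 and 1.24 for Prl7a2. Prl4a1 changed sign without control replicate 4 (0.27) and without SL replicate 2 (0.06). Each of the 6 intervals included 0.

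**Figure D2:**
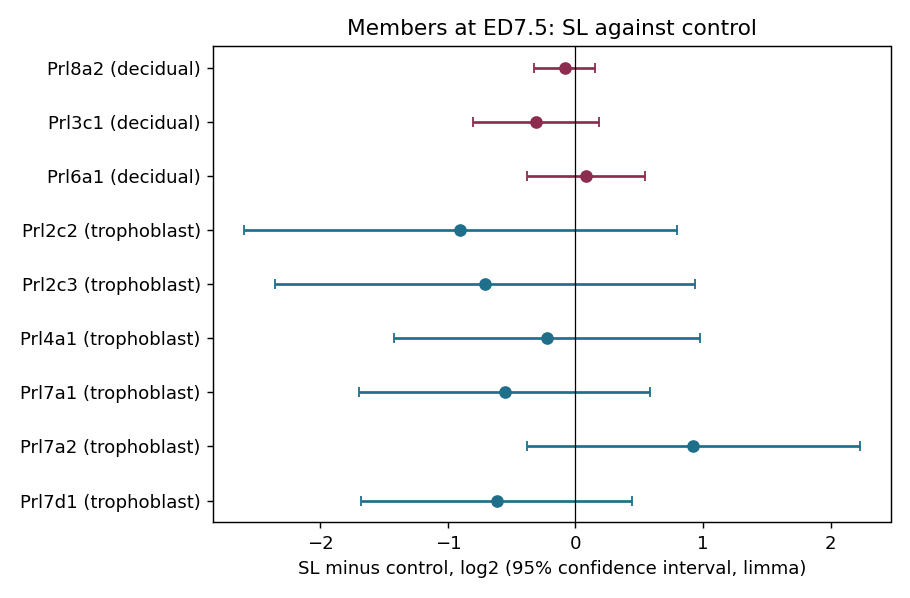
Difference of the SL from the control arrays at ED7.5 for each measured member, in log2, as the limma estimate (point) with its 95% confidence interval (bar). All 9 intervals include 0, from -0.32 to 0.16 for Prl8a2 and from -2.60 to 0.79 for Prl2c2.

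At ED14.5, 0 of 9 members were called by limma (0.0513% of all genes) and 1 of 9, Prl2c3 at -0.51, had an unadjusted p below 0.05 (limma adjusted p = 0.428), against 11.4% of all genes. In liver 0 of 9 were called (0% of all genes) and 1 of 9, Prl3c1 at 0.62, had an unadjusted p below 0.05 (limma adjusted p = 0.557), against 7.91% of all genes. Both genes were under the background there. The difference of the SL effect between ages, tested as an interaction over the 24 arrays in limma, was called for 0 of 9 members from ED7.5 to ED14.5 (0.0769% of genes) and for 0 of 9 from ED14.5 to liver (0.0256%). The lowest p was that of Prl7a2, with a difference of -1.31 between the effects (SE 0.618, limma adjusted p = 0.713).

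The spread of the members between ED7.5 arrays set decidual and trophoblast members apart. The SD within groups was 0.118 for Prl8a2, which lay at the 14.9th percentile of the SDs of all genes, 0.362 for Prl3c1 (85.8th) and 0.338 for Prl6a1 (82.2nd). Prl8a2 lay 0.155 to 0.603 below the highest gene of each ED7.5 array, and the part of the upper limit of the arrays in its narrow spread was not tested. The 6 trophoblast members had SDs from 0.835 (Prl7d1) to 1.35 (Prl2c2), at the 99.6th percentile or above. Over all genes the median SD was 0.210. Among 6037 genes with a mean between 5 and 8, where 5 of 6 trophoblast members lay (all but Prl7d1), it was 0.229 with 90% of genes under 0.405. Among 175 genes with a mean above 12 it was 0.104, so the SD of Prl8a2 was near the middle of genes of its level and that of Prl3c1 above 90% of them, which lay under 0.200.

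Much of the trophoblast spread was shared. Control replicate 4 and SL replicate 3, 1 array of each line, were the highest pair for 4 of 6 trophoblast members (Prl2c2, Prl2c3, Prl4a1 and Prl7a1) and for 1 of 3 decidual members (Prl8a2). The same held for 4.76% of all named genes. On these arrays the 4 genes lay between 7.35 and 8.64, and on the other 6 between 4.06 and 7.04. The gene lists differed in how far they were high on these arrays. Of the 10 genes of a list of trophoblast giant cell genes and placental cathepsins, 4 had the same highest pair, and its array means were 5.00 and 4.95 on the pair and 4.40 to 4.70 on the others. Of these 10, 6 were at or below background on every control array and 7 on every SL array, so the means hold mostly background values. Hand1, a transcription factor of giant cells, measured 8.85 and 8.60 on the pair and 6.45 to 7.72 on the others. Plac1, a placental gene, measured 8.27 and 8.12 on the pair and 5.80 to 7.54 on the others. These 2 genes were picked with their values in view. Of the 10 genes of the spongiotrophoblast list, 1 had the same highest pair, and its array means were 5.26 and 5.03 on the pair and 4.85 to 5.08 on the others. In that list 5 genes were at or below background on every control array and 6 on every SL array.

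By array mean, the epiblast list was highest on the same pair (4.78 and 4.65, others 3.95 to 4.56), as was the visceral endoderm list (6.22 and 6.29, others 5.45 to 6.11) and the uterine natural killer cell list (10.18 and 10.07, others 9.34 to 10.06). By gene, the pair was highest for 2 of 7, 0 of 6 and 1 of 7 members of these lists. Epiblast genes were mostly at or below background, so these means describe values near or under it. The decidual stroma list also had 0 of 13 genes with this highest pair, and its means on the pair, 11.19 and 11.27, lay within the range of the other arrays. Among genes that act after the prolactin receptor, 3 of 11 had this highest pair (Stat3, Socs2 and Ghr). These were above background on every ED7.5 array. The array means of that list were 8.10 and 8.17 on the pair and 7.81 to 8.17 on the others. The pair was highest for 2 of 7 hepatocyte genes and 0 of 4 erythroid genes. High values on the pair were thus not confined to trophoblast and embryo genes. The part of differing amounts of trophoblast or embryo per sample in these values was not tested.

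**Figure D3:**
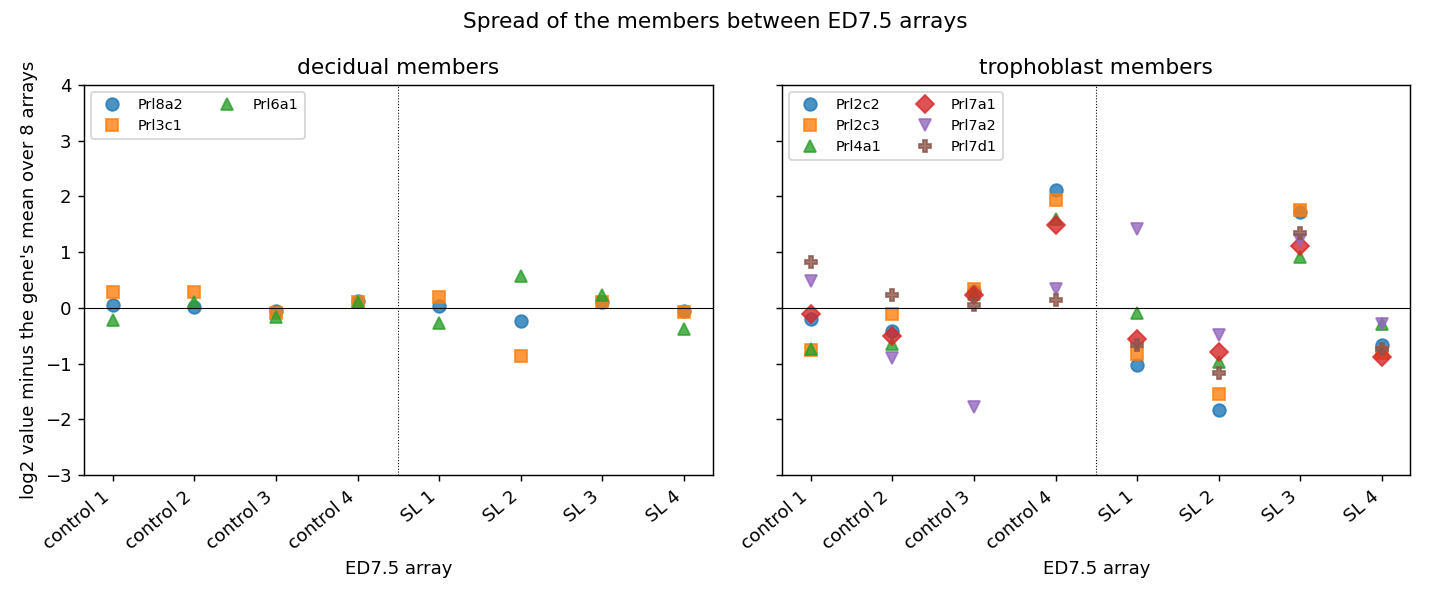
Log2 value of each member on each ED7.5 array minus the mean of that gene over the 8 arrays, with decidual members on the left and trophoblast members on the right. Symbols are genes, and the dotted line separates the 4 control from the 4 SL arrays. Prl2c2, Prl2c3, Prl4a1 and Prl7a1 are high together on control 4 and SL 3, while Prl8a2 stays within a total range of 0.375.

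Pairs of members were correlated over the 8 ED7.5 arrays, with exact two-sided permutation tests over all pairings. Of 3 pairs set out in the plan, Prl8a2 with Prl3c1 gave r = 0.874 (exact p = 0.0149, adjusted over 3 pairs 0.0446) and a rank correlation of 0.548 (exact p = 0.171, adjusted 0.256). Without SL replicate 2 and control replicate 4, which lay farthest out for Prl8a2, r was 0.689 over 6 arrays. Prl4a1 with Prl7d1 gave r = 0.409 (exact p = 0.315, adjusted 0.315) and a rank correlation of 0.333 (exact p = 0.428, adjusted 0.428), and r = 0.02 without control replicate 4 and SL replicate 3. Prl8a2 with Prl4a1 gave r = 0.665 (exact p = 0.0712, adjusted 0.107) and a rank correlation of 0.643 (exact p = 0.0962, adjusted 0.256), and r = 0.246 without SL replicate 2 and control replicate 4. The relation of Prl8a2 with Prl4a1 thus rested on those arrays.

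All 36 pairs were then examined, a step added after the data were seen. After adjustment over the 36 pairs, 6 passed, and they were the 6 pairs among Prl2c2, Prl2c3, Prl4a1 and Prl7a1. The closest was Prl2c2 with Prl2c3, at r = 0.977 (exact p = 0.000322, adjusted 0.00893) and a rank correlation of 0.976 (adjusted 0.0143). The least close was Prl4a1 with Prl7a1, at r = 0.903 (exact p = 0.00412, adjusted 0.0247) and a rank correlation of 0.714 (adjusted 0.173). Without control replicate 4 and SL replicate 3, r was 0.894 for Prl2c2 with Prl2c3 and 0.476 for Prl4a1 with Prl7a1, so the latter rested on those arrays. By rank only 2 of the 6 passed, Prl2c2 with Prl2c3 and Prl2c2 with Prl7a1 (0.929, adjusted 0.0402).

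Prl2c3 and Prl7d1, whose start windows above are 94.0% identical, gave r = 0.669 (exact p = 0.0736, adjusted 0.181) and a rank correlation of 0.690 (adjusted 0.192). Prl7a1 and Prl7a2, whose windows are 76.8% identical, gave r = 0.259 (exact p = 0.530, adjusted 0.682) and a rank correlation of 0.119 (adjusted 0.921). Of the 3 decidual pairs and the 18 pairs of a decidual with a trophoblast member, 0 passed after adjustment over 36 pairs, and at an unadjusted exact p below 0.05 there were 1 of 3 and 4 of 18.

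The rest of the family was measured through 15 of 18 listed genes. Of these 6 were above background on at least 1 ED7.5 array and 9 on none. In RefSeq order along chromosome 13 the family held 26 genes, of which 24 were measured. The 6 above background on all 8 ED7.5 arrays were, in that order, Prl3d3, Prl3c1, Prl6a1, Prl8a2, Prl8a9 and Prl5a1. Genes at or below background lay between some of them, such as Prl2b1 and Prl8a6 between Prl8a2 and Prl8a9. Pituitary prolactin itself, Prl, was below background on all arrays, at 3.56 ± 0.254 (SD, n = 4) in ED7.5 control.

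Prl8a9, a further prolactin-like protein, measured 9.82 ± 0.364 (SD, n = 4) in the control and 10.23 ± 0.362 (SD, n = 4) in the SL arrays at ED7.5. From ED7.5 to ED14.5 it changed by -6.46 in the control line, at least 12.9-fold lower, and by -6.93 in the SL line, at least 17.6-fold. Prl3d2 and Prl3d3, placental lactogen genes of giant cells, stood at 7.17 ± 0.787 and 7.43 ± 0.802 in ED7.5 control (SD, n = 4). In the control line they were at least 2.05-fold and 2.46-fold lower at ED14.5, and in the SL line at least 1.36-fold and 1.86-fold. Prl5a1 stood at 7.32 ± 0.791 in ED7.5 control (SD, n = 4) and was at least 2.28-fold lower in the control line and 2.58-fold in the SL line. For these 3 genes the bounds of the control line rest in part on ED7.5 control replicate 4, their highest control array. Of the 15 genes 8 were called lower at ED14.5 in the control line (26.3% of all genes) and 9 in the SL line (27.1%), some of them with both ages below background.

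Control replicate 4 and SL replicate 3 were the highest pair for 5 of these 15 genes (Prl2a1, Prl2c5, Prl3d2, Prl3d3 and Prl5a1). The share over all named genes is the 4.76% given above. Prl2a1 passed the background on control replicate 4 alone. Prl8a9 was highest on SL replicate 3 and SL replicate 1. In the SL comparison 0 of 15 were called at ED7.5 by limma (0.00513% of all genes) and 0 had an unadjusted p below 0.05 (5.49% of all genes), with a median of -0.16. In liver 6 of 15 had an unadjusted p below 0.05 (7.91% of all genes) but 0 were called by limma (0% of all genes), all of them under the background.

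**Figure D4:**
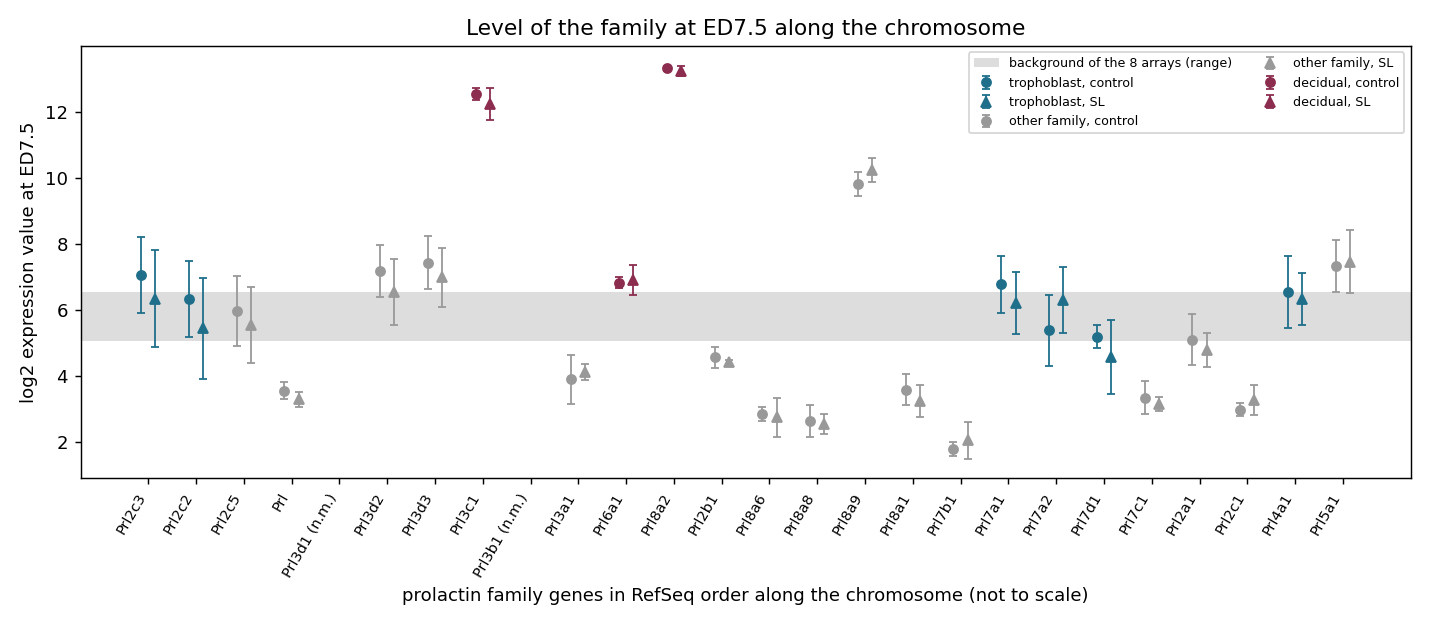
Mean and SD of the deposited log2 values at ED7.5 for the family in RefSeq order along chromosome 13, with 4 control arrays (circles) and 4 SL arrays (triangles) per gene. The axis shows order and not distance, n.m. marks a gene with no named probe set, and the grey band is the range of the 8 backgrounds. Levels of different genes rest on different probes and are not compared; 6 genes lie above the background of all 8 arrays.

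The genes that act after the prolactin receptor were followed through 11 of 12 listed genes. None was called in an SL comparison. At ED7.5, where 0 of 11 had an unadjusted p below 0.05, the median difference was 0.05. The lowest p was that of Socs1, an inhibitor of JAK kinases, at 0.22 (SE 0.177, limma adjusted p = 0.969). At ED14.5, 3 of 11 had an unadjusted p below 0.05 against 11.4% of all genes. Among them was Cish, a target and inhibitor of STAT5 signalling, with 7.30 ± 0.165 in control and 6.77 ± 0.0194 in SL (SD, n = 4 each), a difference of -0.53 (SE 0.103, limma adjusted p = 0.102).

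Between ED7.5 and ED14.5 the same list split. In the control line Stat5a rose by 1.35 and Stat5b by 1.66 (SE 0.190 and 0.148), Jak2 by 0.95 and the growth hormone receptor gene Ghr by 2.05 (SE 0.121). Socs3, an inhibitor of the pathway, fell by 2.53 (SE 0.207), and Stat3, Ptpn11, Socs1 and Irf1 were also called lower. Thus 4 of 11 rose and 5 of 11 fell, where 51.9% of all genes were called in either direction. In the SL line 4 of 11 rose and 6 of 11 fell (53.6% of all genes).

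Among genes that are no member, Dmkn, Erv3, Cyp11a1, Gzmg and Hoxa10 were nearest to Prl8a2 in pattern over the 24 arrays. Members were left out of this ranking, so it does not show whether they lie nearer. Each gene was centred on its own mean, and likeness was the root mean square difference over the 24 arrays, which was 0.765 for Dmkn and 1.07 to 1.16 in log2 for the other 4. All 5 were above background on all 8 ED7.5 arrays. Dmkn had a mean of 11.72 at ED7.5, 2.37 at ED14.5 and 2.46 in liver. Nearest to Prl2c3, the trophoblast member taken for this comparison, were Cpa6 (0.508), Ldoc1, Ceacam9, Psg20 and Adamts16 (up to 0.624), with members again left out. These 5 passed the background on only 1 to 4 of the 8 ED7.5 arrays, so their likeness to Prl2c3 rests on values near or under the background.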

How the data were processed

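Total RNA from snap-frozen samples was labelled as biotin cRNA and hybridised to single-colour arrays, per the labels' protocols. The deposited values are log2 probe set summaries, made by the authors with RMA in the oligo package, per the submitters' processing notes. Neither the version, nor the genome build, nor a joint run of the 24 arrays is stated in these sources. RMA includes quantile normalization, which can hide a shift common to most genes.

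No further normalization was applied. Of 22206 probe sets that are no control, 19572 named 1 gene and 2634 none, and the brightest was kept for 55 genes with several. Within each comparison 8 arrays were fitted with limma 3.58.1 in R 4.3.3 (files read with data.table, version 1.17.8), two-sided, with Benjamini-Hochberg adjustment over 19505 genes and a threshold of 0.05. The fit was also run on simulated data with independent noise per gene and added differences larger than the SL differences of the members. That run does not measure how well differences as small as those would be found. Folds are bounds against the background, the higher of it and the gene's value per array. They are ratios of group means and carry no interval. Windows were aligned with Biopython 1.88.

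The members and lists were chosen with earlier results of these data known. Named were all members, all measured family genes and up to 2 genes per list by p at ED7.5. Also named were the 5 genes, members left out, nearest in pattern to Prl8a2 and to Prl2c3. Prl2c3 was the trophoblast member with the highest mean over the 8 ED7.5 arrays, a choice that rests on probe brightness. Some further list genes, such as Pgr, Stat5a and Ghr, were named outside this rule. The lists were decidual stroma, giant cells and cathepsins, spongiotrophoblast, uterine natural killer cells, epiblast, visceral endoderm, hepatocytes, erythroid cells and receptor signalling. In the SL comparisons 0 genes of any list were called by limma. At ED7.5 the lowest adjusted p by list was 0.760 (decidual stroma, 2 of 13 with an unadjusted p below 0.05), 0.725 (visceral endoderm, 2 of 6), 0.892 (spongiotrophoblast, 1 of 10), 0.911 (erythroid cells, 0 of 4), 0.913 (natural killer cells, 0 of 7), 0.945 (hepatocytes, 0 of 7), 0.956 (giant cells, 0 of 10) and 0.988 (epiblast, 0 of 7), all from limma. Likeness to Prlr could not be given, as Prlr has no named probe set.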

Additional observations from a re-analysis of the deposited data

Results flagged for a closer look

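In 2 of 84 groups of 4 arrays examined, 1 array stood apart from the other 3 by Dixon's criterion, which chance alone gives in about 1 in 20 groups. Prl7a1 measured 7.61 on ED7.5 SL replicate 3, against 5.61 to 5.94 on the other SL arrays of that age. Prl4a1 measured 3.33 on PD7.5 liver control replicate 3, against 2.62 to 2.69 on the others, with all 4 arrays under the background.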

How the results depend on the processing

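Among the results for single members 365 settings kept direction and side of the threshold, 3 reversed and 2 lost the call. Leaving out 1 array moved the ED7.5 difference of SL from control between -0.10 and 0.22 for Prl6a1 and between -0.57 and 0.27 for Prl4a1, where the signs turned; neither was called in any of these fits. The lost calls are those of Prl2c3 between the ages in the SL line (range -2.31 to -1.21), given above. A further setting left out the dimmest 33% of genes by their mean over the arrays compared. There 4 members were called lower at ED14.5 in the control line and 3 in the SL line. These were all the members that remained to be tested. As every member was under the background at ED14.5, those that remained passed this filter through their ED7.5 values. This setting is therefore no independent evidence of a direction. Whether the replicate numbers pair the samples was not settled. Same-numbered arrays correlated with r from -0.165 to 0.116 over 12 pairs, which is not on the scale of the r between whole arrays above. Such values cannot show that no pairing exists. With the replicate number as a block, 1 member, Prl6a1, was called from ED14.5 to liver in the control line (-0.40, limma adjusted p = 0.0409), under the background at both ages. Raising the background to the 90% point left 2 in place of 3 members above it on all ED7.5 arrays. Counts over all genes at ED14.5 depended on the fit, with 10 genes called for SL in the main setting and 0 with the replicate block, 5 with median centring, 79 with all 24 arrays, 99 without the dimmest genes, 283 with an intensity trend and 1 to 5 without 1 array. At ED7.5 the count was 1, against 3 with a trend, 12 with all 24 arrays and 0 to 2 without 1 array, and in liver 0 against 5 with all 24 arrays. The counts of differing SL effects were 15 and 5, against 35 and 28 with a trend, 17 and 11 with median centring and 5 and 3 with the replicate block. No member tested was among any of these; without the dimmest genes only 1 of 9 members was tested at ED14.5 and in liver. Signal near background limits the trophoblast members.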
